A study of Mus musculus with 23 samples.

Results

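DNA replication and G1/S genes code for the proteins that prepare a cell for S phase and copy its DNA, and 46 of them were followed here in mouse lung, out of 41388 genes in the deposited count table. Members are a list of gene symbols drawn up with earlier results of these data known, and all 46 passed the filter on low counts that left 17148 genes. Lungs came from male Balb/c mice kept under clean air or exposed to aerosolized LPS (lipopolysaccharide of bacteria, 0.21 mg/ml), 10 min a day on 3 days. Each exposure was followed 1 h later by an injection into the peritoneum, either saline or 4 mg/kg of human alpha1-antitrypsin (AAT), and lungs were collected 6 h after the last AAT dose. AAT circulates in blood as the main inhibitor of neutrophil elastase, and it was given as native protein (nAAT), oxidized protein (oxAAT) or recombinant protein (recAAT). Air had 3 mice, and LPS alone, LPS with nAAT, LPS with oxAAT and LPS with recAAT had 5 each, with 1 library per mouse. The labels give no age.

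Replication is prepared in G1 and begun in S phase. In G1, the origin recognition complex, Cdc6 and Cdt1 load the MCM helicase onto origins, which is called licensing. At the G1/S boundary, cyclin E and its kinase act with E2F transcription factors, Cdc45 and the GINS complex join the helicase, and polymerases follow, aided by the sliding clamp PCNA. Many of these genes are known E2F targets and are read most in cycling cells, which are few in the resting adult lung. Whole lung was measured, so more cycling cells and more RNA per cell cannot be told apart.

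Gene counts ranged from 14.8 to 47.9 M (28.7 M at the median). A difference unnamed in the labels divided the libraries. In 15 of them, the first set, counts of mt-Nd6, which is read from the other mitochondrial strand than most genes, were 0.34% to 1.14% of those of mt-Nd5, and in 8 libraries, the second set, they were 3.39% to 4.5%. The first set held every air, LPS and LPS+nAAT library and LPS+oxAAT replicates 5101 and 5102. LPS+oxAAT replicates 5103, 5104 and 5105 and every LPS+recAAT library were in the second, so recAAT and library set cannot be told apart. Comparisons of LPS with air and of nAAT with LPS lay within the first set. Markers of alveolar type 2 cells were abundant in every library, with a summed level of 26420 to 35320 CPM (counts scaled to the size of the library) over 7 genes.

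Promoter sequences of 39 of the 46 members were found in RefSeq (GRCm38.p6), as windows of 300 bases from 250 before to 50 after the start listed there. For each gene 1 window was used, the first listed, and its start could differ from that of the GENCODE annotation. The windows of Cdc6, Mcm7 and E2f1 lie inside the genes as GENCODE draws them. They were searched on both strands for 4 spellings of the E2F site: TTTCGCGC, TTTGGCGC, TTTCCCGC and TTTGCCGC. A match occurred in 16 of the 39 member windows (41.0%), against 2.32% of all 27025 windows and 2.92% of the 17492 windows of protein-coding genes. The letters TTTGAA, the core of the element that many mitosis genes carry, were in 4 member windows (10.3%, against 18.1% of all windows). CCAAT was in 24 (61.5%, against 37.9%). Of the 13 members called higher after LPS (below), 12 had a window and 5 of these held an E2F match: Cdc6, Clspn, Mcm3, Mcm5 and Pold1. These matches are letters in a window and no measure of binding.

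The 250 bases before the RefSeq start are shown for 4 members, 5′ to 3′ on the gene's own strand, with E2F matches in capitals. Mcm5 and Cdc6 were called higher after LPS and hold matches, Mcm6 holds 3 matches and missed the threshold, and Rrm2, called in 3 comparisons and so more often than any other member, holds none.
Mcm5, plus strand, chr8:75109259-75109508: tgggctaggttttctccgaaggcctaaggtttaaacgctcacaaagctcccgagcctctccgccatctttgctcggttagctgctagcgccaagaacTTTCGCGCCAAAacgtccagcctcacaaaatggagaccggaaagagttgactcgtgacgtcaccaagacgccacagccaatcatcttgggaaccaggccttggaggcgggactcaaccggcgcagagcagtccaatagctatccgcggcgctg
Cdc6, plus strand, chr11:98907901-98908150: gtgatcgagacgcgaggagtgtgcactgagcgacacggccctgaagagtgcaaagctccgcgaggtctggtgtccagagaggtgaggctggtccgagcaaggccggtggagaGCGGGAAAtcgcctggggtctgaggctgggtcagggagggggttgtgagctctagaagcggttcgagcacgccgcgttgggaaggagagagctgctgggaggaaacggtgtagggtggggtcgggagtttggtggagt
Mcm6, minus strand, chr1:128359706-128359955: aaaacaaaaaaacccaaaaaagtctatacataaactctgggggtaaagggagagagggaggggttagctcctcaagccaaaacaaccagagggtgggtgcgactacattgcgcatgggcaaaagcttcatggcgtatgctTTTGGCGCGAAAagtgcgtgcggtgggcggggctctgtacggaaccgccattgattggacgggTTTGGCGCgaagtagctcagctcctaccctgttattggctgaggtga
Rrm2, plus strand, chr12:24708004-24708253: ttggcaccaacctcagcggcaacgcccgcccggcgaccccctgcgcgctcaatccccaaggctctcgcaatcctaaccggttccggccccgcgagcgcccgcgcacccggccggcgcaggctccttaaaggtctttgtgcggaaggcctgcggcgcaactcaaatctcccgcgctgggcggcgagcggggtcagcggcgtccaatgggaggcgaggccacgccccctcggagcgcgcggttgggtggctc
In Mcm5 the 2 matches lie on opposite strands and overlap, and their 5′ edges are 153 and 149 bases before the start. Mcm6 has such a pair, with edges at 110 and 106 bases, and another match at 47 bases. The single match in Cdc6 is on the other strand, 138 bases before the RefSeq start. The GENCODE start of Cdc6, at 98907801, lies before the whole printed stretch.

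Members differed widely in level. Per kilobase of exon, averaged over the 23 libraries, Pcna (the sliding clamp) was highest at 27.7 CPM per kb, followed by Gins4 (15.8), Mcm4 (10.3), Mcm7 (9.28) and Mcm3 (9.23). The lowest were Mcm10 (0.442), Orc1 (0.396) and Dtl (0.378). All 6 subunits of the MCM2-7 ring lay between 4.06 (Mcm2) and 10.3 CPM per kb. Other loading factors ranged from Orc1 to Orc6 (5.66), with Cdc6 at 0.734 and Cdt1 at 4.09 CPM per kb, and G1/S control members from Dtl to E2f2 (5.45).

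The mean log2 CPM over the 46 members gave a score for each library. It was 2.97 ± 0.07 (SD, n = 3) in air, 3.34 ± 0.06 (n = 5) in LPS, 3.59 ± 0.11 (n = 5) in LPS+nAAT, 3.38 ± 0.10 (n = 5) in LPS+oxAAT and 3.53 ± 0.06 (n = 5) in LPS+recAAT. The air libraries stood at 2.91, 2.97 and 3.04, and the LPS libraries at 3.24, 3.33, 3.35, 3.36 and 3.40. With native AAT the values were 3.44, 3.55, 3.56, 3.65 and 3.73, all above the LPS libraries. With oxidized AAT they were 3.27, 3.29, 3.36, 3.47 and 3.49, spread across and above the LPS range. With recombinant AAT they were 3.43, 3.53, 3.55, 3.58 and 3.58, above every LPS library and inside the range of native AAT except for its lowest value. The score is a description and was not tested.

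**Figure D1:**
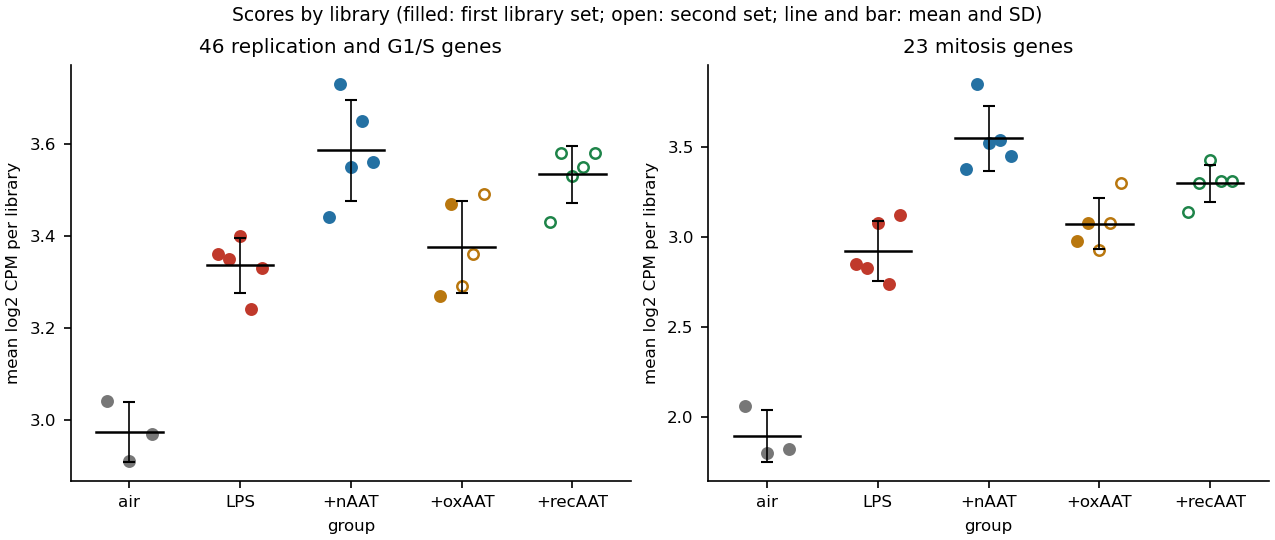
Mean log2 CPM in each library (y axis) by group (x axis) over the 46 members (left) and 23 mitosis genes (right). Points are libraries, filled for the first set and open for the second, and lines with bars are group mean and SD. The 3 air libraries lie lowest in both panels (2.91 to 3.04 on the left), and the 5 LPS+nAAT libraries lie above the 5 LPS libraries in both.

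LPS against air asks what repeated inhalation of LPS did. After LPS, 13 of the 46 members rose and none fell, where 2.71% of all tested genes were called higher (edgeR quasi-likelihood F test, Benjamini-Hochberg adjusted p under 0.05 over all 17148 genes). The risers included genes of nucleotide supply (Rrm2, Tk1), origin licensing (Cdc6, Mcm5, Mcm3), origin firing (Mcm10, Gins2), maintenance methylation (Uhrf1) and checkpoint and repair (Clspn, Brca1). The median log2 fold change of the members was 0.34, against -0.01 over all tested genes, and 41 of the 46 values were above 0. At an unadjusted p under 0.05, 24 members were higher and none lower, against 8.37% and 9.69% of all genes. In 16 members every LPS library was above every air library, against 5.31% of all genes.

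Nucleotide supply held 2 of the risers among its 4 members. Rrm2, the regulated small subunit of ribonucleotide reductase, stood at 5.48, 5.68 and 6.42 CPM in air and at 8.86, 11.1, 11.2, 12.2 and 13 CPM after LPS. The groups did not overlap, and the log2 fold change was 0.95 ± 0.14 (SE; edgeR adjusted p = 7.55e-05). Tk1, the S-phase thymidine kinase, was at 4.38, 5.61 and 6.49 CPM in air and at 9.84, 10.2, 10.9, 11.6 and 12.6 CPM after LPS, a log2 fold change of 1.0 ± 0.18 (edgeR adjusted p = 0.0013). Every LPS library was above every air library here too. Rrm1, the large reductase subunit and partner of Rrm2, did not follow. It was at 41.7, 42.4 and 44.6 CPM in air and 42.7, 44.4, 44.6, 45.65 and 53.1 CPM after LPS. These groups overlapped, with a log2 fold change of 0.10 ± 0.10 (edgeR adjusted p = 0.644). Tyms, which makes thymidylate, gave 0.23 ± 0.17 (edgeR adjusted p = 0.523).

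Origin licensing had 10 members, of which Cdc6, Mcm5 and Mcm3 rose. Mcm5, a ring subunit whose promoter is printed above, was at 19.6, 19.9 and 20.8 CPM in air and 25.0, 28.1, 28.2, 29.7 and 31.9 CPM after LPS. Its groups were apart, with a log2 fold change of 0.51 ± 0.12 (edgeR adjusted p = 0.0114). Cdc6, the loading factor, averaged 2.24 ± 0.56 CPM (SD, n = 3) in air and 3.79 ± 0.46 CPM (n = 5) after LPS. Mcm3 averaged 25.9 ± 3.4 and 35.4 ± 3.0 CPM in the same groups. The subunits of a single ring did not give the same estimates: log2 fold changes were 0.51 (Mcm5), 0.45 (Mcm3), 0.39 (Mcm6), 0.28 (Mcm7), 0.25 (Mcm2) and 0.04 (Mcm4), with standard errors of 0.10 to 0.12. No test compared the subunits with each other. Mcm7, the member of this role with the highest mean CPM, was at 31.5, 35.4 and 35.4 CPM in air and 37.3, 41.0, 41.0, 41.2 and 46.6 CPM after LPS. Those groups did not overlap, yet the adjusted p was 0.102 by edgeR. Orc6, of the origin recognition complex, gave -0.03 ± 0.13.

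Among the 6 firing factors, Mcm10 and Gins2 rose. Mcm10, which activates the loaded helicase, went from 1.33, 1.66 and 1.84 CPM in air to 3.24, 3.25, 3.41, 3.90 and 4.86 CPM after LPS. That was the largest estimate of any member, 1.21 ± 0.23 on the log2 scale (edgeR adjusted p = 0.0019), in a gene of few counts. Gins2 averaged 2.90 ± 0.48 CPM in air and 4.88 ± 0.78 CPM after LPS (log2 fold change 0.75 ± 0.20). It shares 2758 exon bases with Gse1 on the opposite strand, and the strand setting of the counting is not given in the sources used here. Gins4, of the same GINS complex, was at 19.2, 20.9 and 25.3 CPM in air and 19.2, 20.02, 22.4, 23.8 and 24.3 CPM after LPS. Its groups overlapped, with a log2 fold change of 0.01 ± 0.11.

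Of 8 members at the clamp, clamp loader and lagging strand, Lig1, the ligase that joins Okazaki fragments, rose (0.52 ± 0.13, edgeR adjusted p = 0.0214). Pcna was at 52.9, 57.9 and 62.7 CPM in air and 59.1, 59.9, 65.9, 69.3 and 71.5 CPM after LPS, overlapping groups with a log2 fold change of 0.17 ± 0.10. Pclaf, a PCNA-binding factor, was at 1.82, 1.84 and 2.42 CPM in air and 2.44, 3.45, 3.50, 3.52 and 3.73 CPM after LPS. The highest air library was just below the lowest LPS library, and the adjusted p of its log2 fold change of 0.72 ± 0.23 was 0.0751 by edgeR.

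Polymerases and primase had the smallest median log2 fold change of the 8 roles, 0.07, and 1 of 7 rose. The riser was Pold1, the catalytic subunit of polymerase delta, at 26.0, 26.2 and 27.9 CPM in air and 30.1, 35.5, 35.7, 36.5 and 39.1 CPM after LPS (log2 fold change 0.41 ± 0.11, edgeR adjusted p = 0.0384). Its groups did not overlap. Pola2, a subunit of the polymerase alpha-primase complex, was at 25.1, 25.4 and 25.8 CPM in air and 23.2, 25.1, 25.2, 29.2 and 30.6 CPM after LPS. Prim1, the primase catalytic subunit, was at 7.035, 8.47 and 8.56 CPM in air and 7.039, 7.46, 7.81, 8.08 and 9.60 CPM after LPS. The air values of Pola2 fell inside its LPS range, and those of Prim1 did so except for the lowest, which was just under the lowest LPS library.

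Of the 5 G1/S control members none was called after LPS. E2f2, the member of this role with the highest mean CPM, was at 22.3, 24.7 and 25.1 CPM in air and 23, 24.7, 26.9, 28.4 and 30.0 CPM after LPS. Ccne2, a cyclin E gene, was at 0.832, 1.04 and 1.41 CPM in air and 0.767, 0.912, 0.951, 1.31 and 1.85 CPM after LPS. The ranges of both genes overlapped. Dtl, an adaptor that sends Cdt1 to degradation in S phase, was at 2.27, 3.37 and 3.46 CPM in air and 2.96, 3.50, 4.20, 5.07 and 5.76 CPM after LPS (log2 fold change 0.50 ± 0.21, edgeR adjusted p = 0.195). Ccne1, the other cyclin E gene, gave 0.52 ± 0.24 and E2f1 gave 0.16 ± 0.14.

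In the chromatin group, Uhrf1, which guides maintenance DNA methylation behind the fork, was at 6.75, 7.63 and 8.80 CPM in air and 12.8, 13.2, 14.8, 15.4 and 16.2 CPM after LPS. Its groups were well apart, with a log2 fold change of 0.91 ± 0.14 (edgeR adjusted p = 0.000145). Chaf1a, a subunit of the chromatin assembly factor that deposits histones on new DNA, was at 8.24, 10.2 and 10.5 CPM in air and 12.7, 12.7, 12.9, 13.1 and 16 CPM after LPS (log2 fold change 0.48 ± 0.12, edgeR adjusted p = 0.0176). It shares 4648 exon bases with Ubxn6 on the opposite strand. Chaf1b, of the same factor, gave -0.07 ± 0.14. In the checkpoint and repair group, Clspn, the mediator of the replication checkpoint, rose (0.87 ± 0.23, edgeR adjusted p = 0.0247). Brca1, a repair gene, was at 1.89, 3.05 and 3.07 CPM in air and 2.96, 4.17, 4.46, 4.65 and 4.87 CPM after LPS. These groups overlapped through a single LPS library, and the adjusted p of 0.0493 (edgeR, log2 fold change 0.66 ± 0.19) was the closest to the threshold.

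Rrm2, Uhrf1, Tk1 and Mcm10 kept their calls whichever of the 23 libraries was left out, while each of the other 9 lost its call without at least 1 library. Without air replicate 2105 the number called was 4, without air replicate 2102 it was 5 and without LPS replicate 1101 it was 6. In those fits 299 of 17420, 274 of 17387 and 377 of 17077 genes were called higher. A fit of the air and LPS libraries alone called 5 members, and a fit of the first set alone 7, in each case all higher. Of all genes, 268 of 16472 and 370 of 17179 were called higher there.

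**Figure D2:**
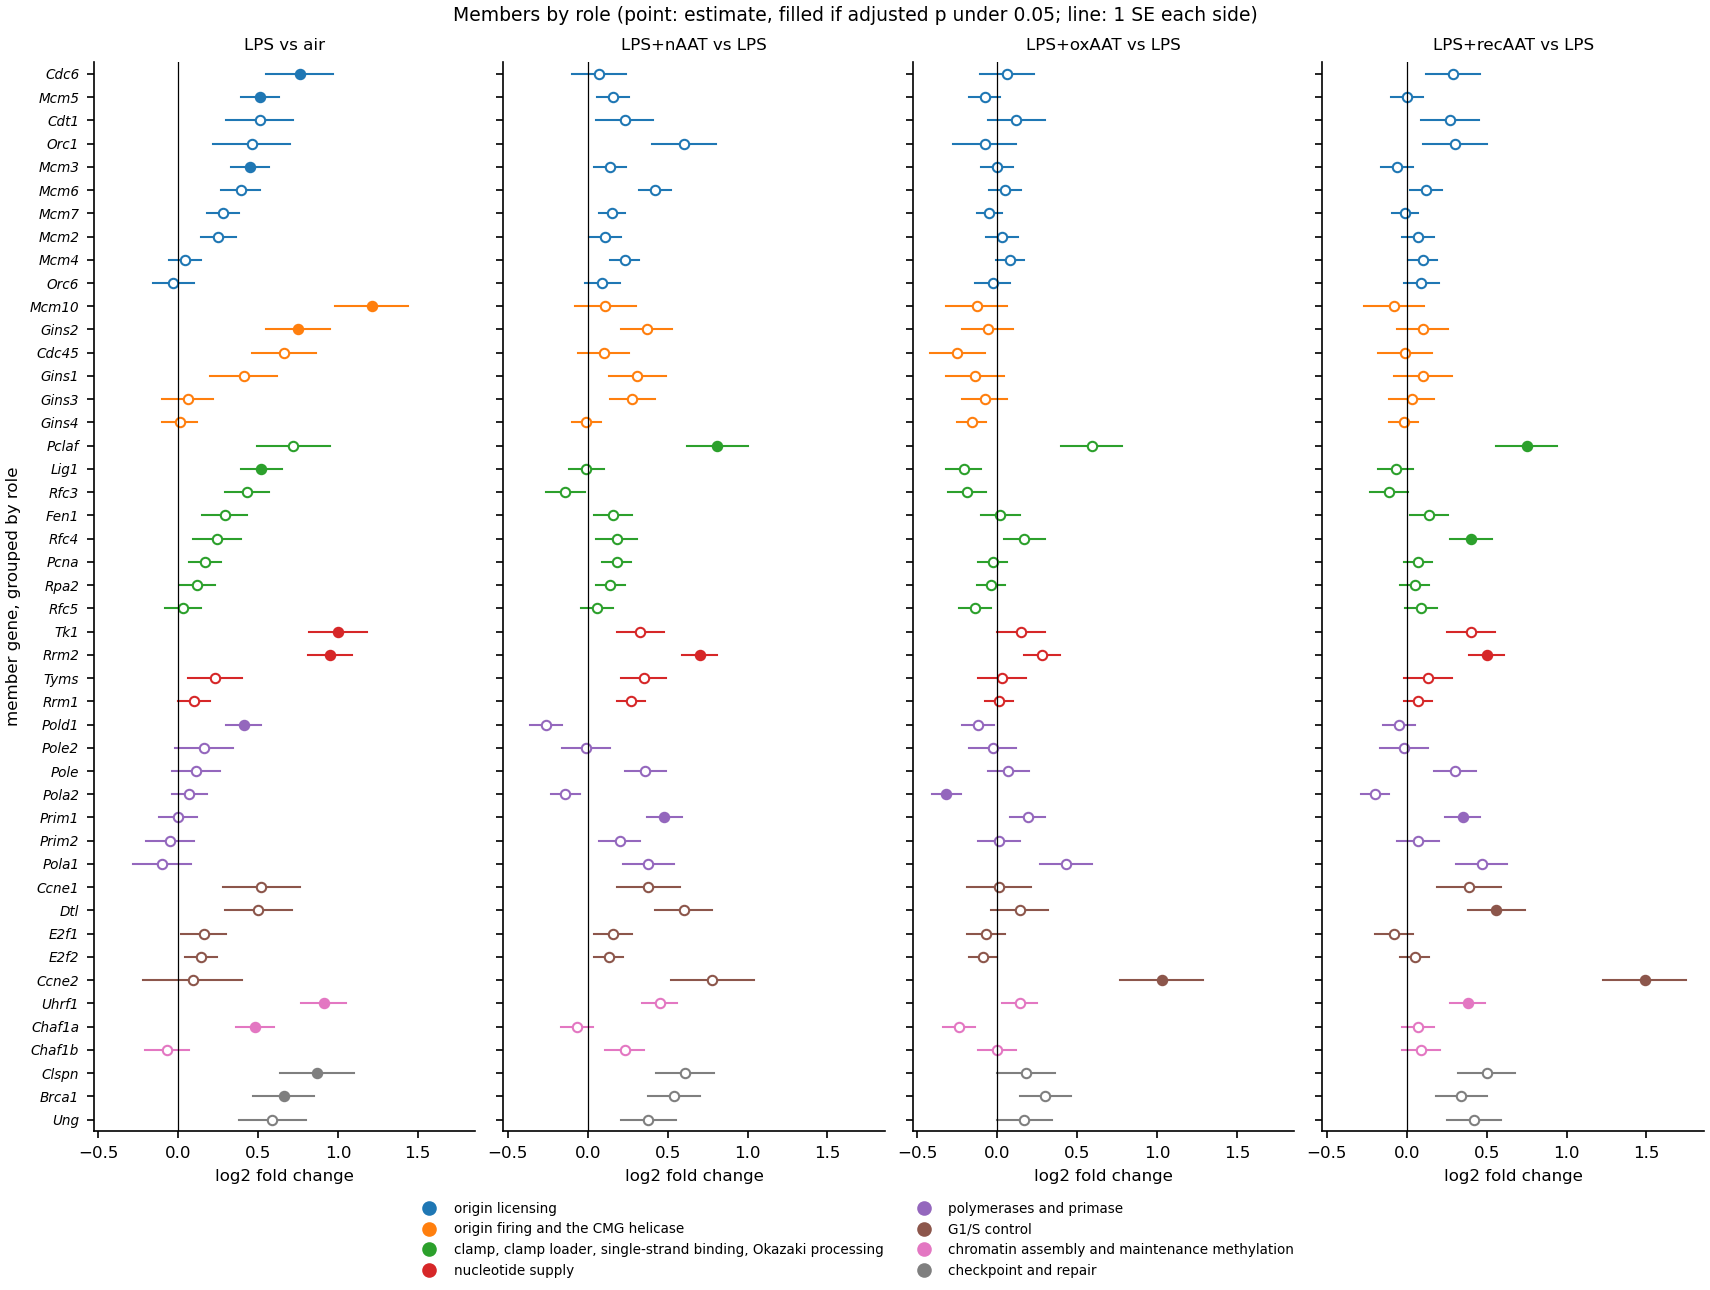
Log2 fold change of each of the 46 members (x axis) in 4 comparisons, with genes on the y axis grouped and coloured by role and ordered within a role by LPS against air. Points are estimates, filled where the adjusted p was under 0.05, and lines span 1 SE each side. After LPS 41 of 46 points lie right of 0 and 13 are filled, and with oxAAT the points divide 23 to 23.

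Genes around the members gave the context. Over all 17148 tested genes, 2.71% were called higher after LPS and 288 genes were called lower. Of 41 other replication genes, 1 rose after LPS (Asf1b, a histone chaperone, log2 fold change 0.97 ± 0.20), and their median was 0.04. Of 29 other G1/S regulators, 3 rose: Myc (1.17 ± 0.15), E2f8, a repressor of the E2F family (1.05 ± 0.27), and Cdkn1a, the p21 cell-cycle inhibitor (0.60 ± 0.14). Cdkn1b, the p27 inhibitor, fell by 0.44 on the log2 scale (SE 0.13). Of 23 mitosis genes 21 rose and none fell, with a median of 1.17. Among those, Bub1b rose by 1.38 ± 0.14, Mki67 by 1.47 ± 0.16, Cdk1 by 1.17 ± 0.14 and Plk1 by 1.25 ± 0.17. The mitosis score went from 1.89 ± 0.14 (SD, n = 3) in air to 2.92 ± 0.17 (n = 5) after LPS, a wider step than that of the member score.

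Cell type markers moved with LPS as well. The summed level of 12 alveolar macrophage markers was 574 to 645 CPM in air and 732 to 961 CPM after LPS, with 3 of 12 called higher (Marco, Ctsk, Itgax) and 1 lower (Ear2). For 9 markers of monocytes and recruited macrophages it was 165 to 220 CPM in air and 337 to 397 CPM after LPS, with 5 of 9 called higher and none lower. None of these markers was at 0 in every library. Of 7 neutrophil, 8 T cell and 7 B cell markers none was called. The neutrophil markers still summed to 196 to 249 CPM in air and 271 to 378 CPM after LPS, without overlap. Their median log2 fold change was 0.47, against -0.01 for T cell and 0.08 for B cell markers. Granulocyte progenitor markers, a sign of immature blood cells, summed to 0.746 to 0.945 CPM in air and 1.65 to 2.34 CPM after LPS. Only 1 of these 5 markers passed the filter on low counts, and Ms4a3 was at 0 in every LPS library. The part of these cell types in the rise of the members was not tested.

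Native AAT with LPS against LPS asks what treatment with the plasma protein added. Rrm2, Pclaf and Prim1 rose and no member fell, where 0.449% of all tested genes were called higher. The median log2 fold change of the members was 0.21, against 0.00 over all tested genes, with 39 values above 0. At an unadjusted p under 0.05, 19 members were higher and 1 (Pold1) was lower, against 8.68% and 6.06% of all genes. Every LPS+nAAT library was above every LPS library in 6 members (Rrm2, Prim1, Pclaf, Brca1, Mcm6 and Orc1), against 1.99% of all genes.

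Rrm2 reached 15.4, 16.8, 18.9, 19 and 21.9 CPM with native AAT, all above the LPS maximum of 13 CPM, for a log2 fold change of 0.70 ± 0.11 (edgeR adjusted p = 0.0053). Pclaf reached 4.51, 5.80, 5.95, 6.41 and 6.65 CPM, against at most 3.73 CPM in LPS (log2 fold change 0.81 ± 0.19, edgeR adjusted p = 0.0391). Prim1 reached 9.72, 10.5, 10.6, 12.2 and 12.8 CPM (log2 fold change 0.48 ± 0.11, edgeR adjusted p = 0.0367). Prim1 had shown no difference between air and LPS beyond its spread, and its lowest value with native AAT was just above the LPS maximum of 9.60 CPM.

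Of the members that had risen with LPS, Mcm10, Chaf1a and Mcm5 gave values near their LPS level when native AAT was added, while Uhrf1 and Tk1 lay mostly above it. Mcm10 was at 2.56, 3.69, 4.21, 4.42 and 5.14 CPM (log2 fold change 0.11 ± 0.19), Chaf1a at 10.9, 12, 13.1, 13.2 and 14.9 CPM (-0.07 ± 0.10) and Mcm5 at 27.4, 28.4, 33.4, 33.8 and 36.5 CPM (0.16 ± 0.10). All of these overlapped the LPS libraries. Uhrf1 was at 15.3, 18, 19.5, 21.7 and 24.3 CPM (0.45 ± 0.11, edgeR adjusted p = 0.0585) and Tk1 at 12.2, 13.2, 13.5, 14.2 and 15.9 CPM (0.33 ± 0.15, edgeR adjusted p = 0.312). In both, 1 LPS+nAAT library lay inside the LPS range and the others lay above it. Uhrf1 was called higher by the DESeq2 Wald test and with the curve of counts on GC content removed.

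Other members also missed the threshold. Brca1 was at 5.09, 5.84, 6.41, 6.60 and 6.83 CPM, above every LPS library (0.54 ± 0.16, edgeR adjusted p = 0.106). Dtl was at 5.54, 6.25, 6.31, 6.96 and 7.79 CPM (0.60 ± 0.18, edgeR adjusted p = 0.106), and Ccne2 was at 1.09, 1.72, 1.96, 2.52 and 2.81 CPM (0.78 ± 0.26, edgeR adjusted p = 0.154). Mcm6 averaged 24.8 ± 2.3 CPM in LPS and 33.0 ± 3.2 CPM with native AAT (0.42 ± 0.10, edgeR adjusted p = 0.0537). Orc1, the ATPase of the origin recognition complex, averaged 1.24 ± 0.29 and 1.88 ± 0.24 CPM (0.60 ± 0.20, edgeR adjusted p = 0.156).

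Highly read members of the other roles gave smaller estimates with native AAT. Pcna was at 69.4, 70.3, 73.1, 73.5 and 83.6 CPM (0.18 ± 0.09), Rrm1 at 47.2, 56.1, 56.9, 58.7 and 59.4 CPM (0.27 ± 0.09, edgeR adjusted p = 0.139) and Mcm7 at 41.3, 44.7, 45.4, 45.9 and 51.7 CPM (0.15 ± 0.08). E2f2 was at 27.1, 27.5, 28.6, 30.9 and 31.0 CPM (0.13 ± 0.09) and Gins4 at 20.1, 20.9, 21.9, 22.8 and 23.2 CPM (-0.01 ± 0.09). Pold1 and Pola2 had estimates below 0, Pold1 at 24.6, 28.0, 30.3, 30.6 and 33.7 CPM (-0.26 ± 0.10, edgeR adjusted p = 0.197) and Pola2 at 20.8, 23.4, 23.5, 24.3 and 28.9 CPM (-0.14 ± 0.09). None of these 7 named members passed the threshold. The median of the polymerase and primase group was 0.20.

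Mitosis genes showed more calls than the members: 15 of 23 rose with native AAT, with a median of 0.64, among them Ccna2 (1.02 ± 0.14), Ccnb1 (0.95 ± 0.17), Tpx2 (0.64 ± 0.12) and Prc1 (0.75 ± 0.15). Of the 41 other replication genes 1 rose (Asf1b, 0.71 ± 0.16), and none of the 29 G1/S regulators was called, where 0.449% of all tested genes were called higher. The 12 alveolar macrophage markers summed to 976 to 1294 CPM with native AAT, all above the 732 to 961 CPM of LPS, although none of the 12 was called. Monocyte and recruited macrophage markers summed to 280 to 366 CPM, overlapping LPS, and neutrophil markers to 238 to 686 CPM against 271 to 378 CPM. Whether alveolar macrophages had a part in the members' rise was not tested.

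Rrm2 kept its call with native AAT whichever of the 23 libraries was left out. It was then the only member called without LPS replicate 1101, 1102 or 1104, LPS+nAAT replicate 4102, 4104 or 4105, or LPS+recAAT replicate 6104. In those fits 11 to 53 of all tested genes were called higher. A fit of the LPS and LPS+nAAT libraries alone called no member, with 7 of all 16126 genes called higher. In it, 16 members were higher and 1 lower at an unadjusted p under 0.05, against 7.18% and 5.97% of all genes. The edgeR adjusted p of Rrm2 was 0.0544 there. The DESeq2 Wald test called 8 members, all higher, with 289 of 14154 genes called higher.

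**Figure D3:**
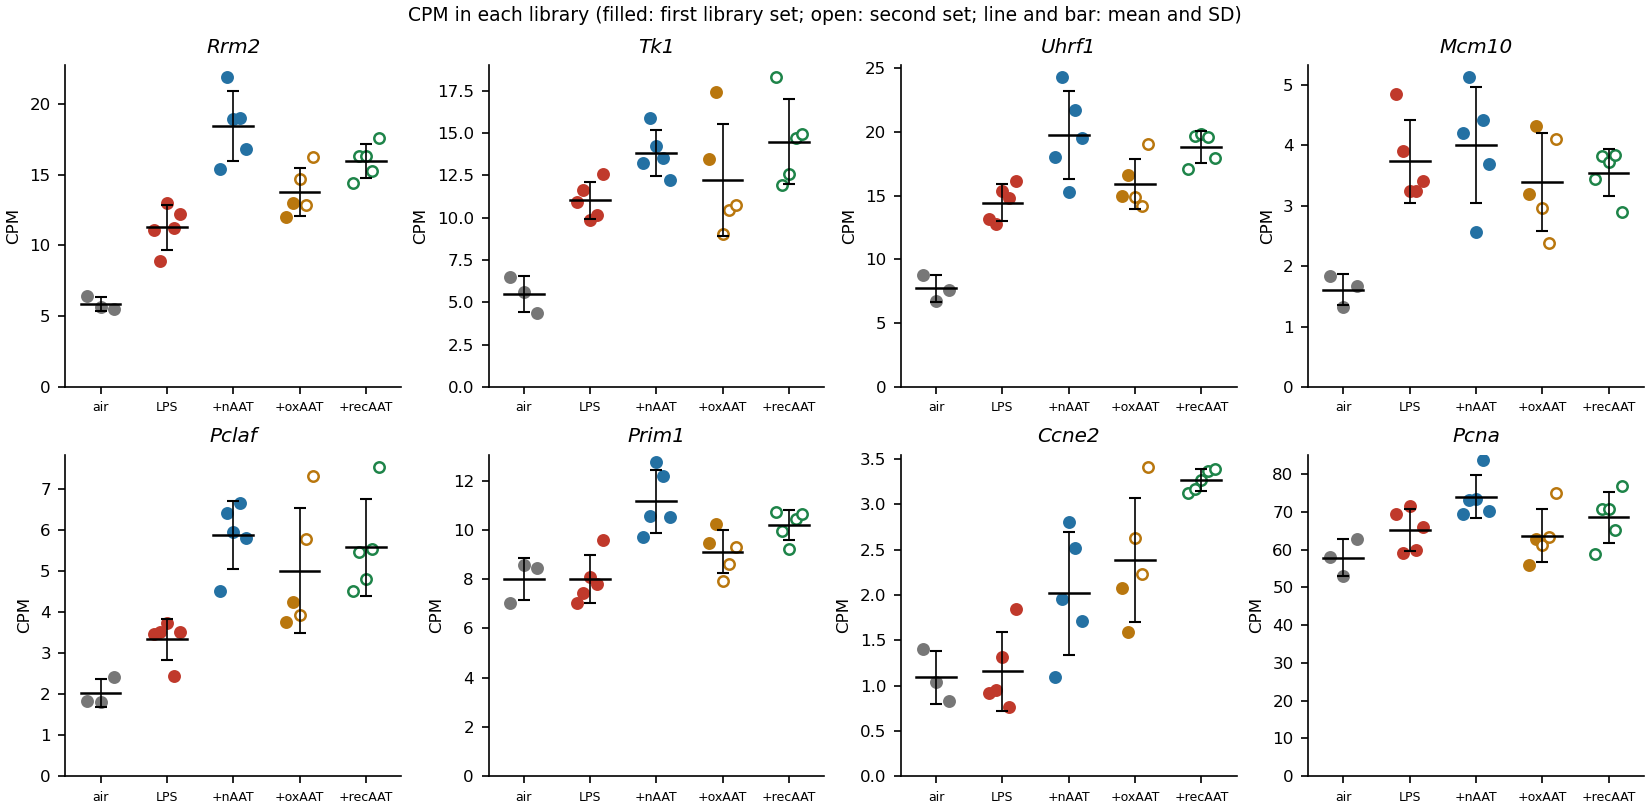
CPM (y axis, from 0) of 8 members in each library by group (x axis). Points are libraries, filled for the first set and open for the second, and lines with bars are group mean and SD. Rrm2, Tk1, Uhrf1 and Mcm10 lie lowest in the 3 air libraries, Prim1 does not, and Ccne2 is at 3.13 to 3.39 CPM in the 5 LPS+recAAT libraries.

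Oxidized AAT with LPS against LPS gave 1 member higher and 1 lower. The background was 3.94% of all tested genes higher and 0.77% lower, so these counts are at or near it. The median log2 fold change was 0.00, the values split 23 above and 23 below 0, and 4 members were higher and 2 lower at an unadjusted p under 0.05, against 12.3% and 7.93% of all genes. Ccne2 rose, at 1.59, 2.08, 2.23, 2.62 and 3.42 CPM (log2 fold change 1.03 ± 0.26, edgeR adjusted p = 0.0221), although 1 LPS library at 1.85 CPM overlapped. Pola2 fell to 19.5, 19.6, 21, 22.6 and 24 CPM, a log2 fold change of -0.32 ± 0.09 (edgeR adjusted p = 0.0445), with 1 LPS library at 23.2 CPM inside that range.

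Neither call was made with library set as a term, in the first set alone, with the curve of counts on GC content removed, or in a fit of the 2 groups. All genes called higher and lower were 2 and 4, 4 and 9, 182 and 77, and 9 and 6 in these fits, in that order. Ccne2 was then at 0.65 with set as a term and 0.60 with the GC curve removed, and Pola2 at -0.29 and -0.37, on the log2 scale. No member was called without LPS replicate 1101, 1102 or 1104 or LPS+oxAAT replicate 5103, where 145 to 340 of all genes were higher and 22 to 48 lower. Without LPS+oxAAT replicate 5102, 3 members were called higher and 1 lower, where 1350 of all 17093 genes were higher and 531 lower. In 12 other omissions, of air, LPS+nAAT, LPS+oxAAT or LPS+recAAT libraries, 1 member was called. Ccne2 has the lowest GC content of the members (36.3% of its transcript bases) and shares 609 exon bases with Ints8 on the opposite strand.

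No member that rose with LPS was called with oxAAT against LPS. Rrm2 was at 12, 12.8, 13, 14.7 and 16.2 CPM (0.28 ± 0.11, edgeR adjusted p = 0.15), Uhrf1 at 14.2, 14.9, 15.0, 16.6 and 19 CPM (0.14 ± 0.11) and Tk1 at 9.06, 10.5, 10.7, 13.4 and 17.4 CPM (0.15 ± 0.15). Each of these ranges overlapped that of LPS. Mcm10 was at 2.39, 2.96, 3.20, 4.11 and 4.33 CPM (-0.13 ± 0.19), Mcm5 at 23.1, 24.2, 27.7, 28.6 and 31.4 CPM (-0.08 ± 0.10) and Chaf1a at 10.6, 10.9, 11.1, 11.4 and 13.1 CPM (-0.24 ± 0.10). Pclaf was above the LPS range in every library, at 3.76, 3.92, 4.25, 5.77 and 7.32 CPM (0.59 ± 0.19), with an adjusted p of 0.0703 by edgeR.

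The remaining named members with oxAAT also overlapped LPS. Prim1 was at 7.95, 8.64, 9.30, 9.48 and 10.2 CPM, Dtl at 3.40, 4.40, 4.86, 5.47 and 5.54 CPM and Brca1 at 4.58, 4.61, 5.16, 5.21 and 6.41 CPM. Pold1 was at 27.8, 28.3, 34.4, 35.1 and 37.5 CPM, Pcna at 55.9, 61.3, 62.9, 63.3 and 75.0 CPM and Rrm1 at 40.4, 44.2, 47.5, 48.2 and 51.4 CPM. Their log2 fold changes against LPS ran from -0.12 (Pold1) to 0.30 (Brca1). Mcm7 (35.7, 38.0, 39.8, 40.4 and 46.6 CPM), E2f2 (23, 23.3, 24, 25.6 and 28.7 CPM) and Gins4 (17.6, 18.3, 20.4, 21 and 21.1 CPM) gave -0.05, -0.09 and -0.16.

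Recombinant AAT with LPS against LPS gave 7 members higher and none lower, where 6.47% of all tested genes were called higher. They were Ccne2, Rrm2, Pclaf, Uhrf1, Prim1, Dtl and Rfc4. The median log2 fold change of the members was 0.10, against -0.01 over all tested genes, and 35 values were above 0. At an unadjusted p under 0.05, 13 members were higher and 1 lower, against 13.9% and 9.73% of all genes. In 6 members every LPS+recAAT library was above every LPS library, against 5.48% of all genes. Set membership and recAAT coincide in these libraries. With set as a term no member was called (5 had an unadjusted p under 0.05, all higher, against 4.68% of all genes), nor was any of the 17148 genes. The median of the members in that fit was 0.17. Only the oxAAT group has libraries in both sets, so the set term rests on those 5 libraries and the fit cannot settle the recAAT difference.

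Ccne2 was at 3.13, 3.17, 3.27, 3.37 and 3.39 CPM with recAAT, above every LPS library and tightly grouped, for a log2 fold change of 1.49 ± 0.26 (edgeR adjusted p = 0.00106). The estimate was 0.98 with the GC curve removed (edgeR adjusted p = 0.00742) and 0.89 with set as a term (edgeR adjusted p = 0.668). Rrm2 was at 14.4, 15.2, 16.3, 16.3 and 17.6 CPM, again above every LPS library (0.50 ± 0.11, edgeR adjusted p = 0.00662). Pclaf was at 4.51, 4.80, 5.46, 5.53 and 7.54 CPM and likewise did not overlap (0.75 ± 0.19, edgeR adjusted p = 0.0132). These 3 calls were made whichever of the 23 libraries was left out.

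Uhrf1 was at 17.1, 17.9, 19.6, 19.7 and 19.9 CPM with recAAT (0.38 ± 0.11, edgeR adjusted p = 0.0394) and Dtl at 4.88, 6.40, 6.68, 7 and 7.04 CPM (0.56 ± 0.18, edgeR adjusted p = 0.0458). Prim1 was at 9.24, 9.97, 10.5, 10.7 and 10.7 CPM (0.35 ± 0.11, edgeR adjusted p = 0.0412). Rfc4, a clamp loader subunit, averaged 6.12 ± 0.73 CPM in LPS and 8.10 ± 1.19 CPM with recAAT (0.40 ± 0.13, edgeR adjusted p = 0.0475), and it shares 194 exon bases with Eif4a2 on the opposite strand. Uhrf1 and Rfc4 did not overlap LPS, while Prim1 and Dtl each did. The count of called members was 3 without LPS replicate 1101, 1102 or 1104 or LPS+recAAT replicate 6104, where 709 to 803 of all genes were called higher. It was 4 without LPS+recAAT replicate 6102 or 6105, where 896 and 1002 of all genes were. With the GC curve removed the count was 3 (435 of all 17148 genes), and in a fit of the 2 groups it was 4 (899 of 16237).

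Of the 10 origin licensing members none was called with recAAT, and their log2 fold changes ran from -0.06 (Mcm3) to 0.30 (Orc1). Mcm5 was at 23.8, 27.4, 29.6, 29.8 and 32.6 CPM (0.00 ± 0.10), Mcm7 at 36.5, 40.8, 41.0, 42.0 and 45.5 CPM (-0.01 ± 0.08) and Mcm10 at 2.90, 3.44, 3.73, 3.83 and 3.85 CPM (-0.08 ± 0.19). Gins4 was at 19, 20.8, 22.2, 22.9 and 23.4 CPM and Pcna at 58.7, 65.2, 70.8, 70.8 and 76.9 CPM, with log2 fold changes of -0.02 and 0.07. All of these overlapped LPS, as did Rrm1 (40.7, 46.8, 47.6, 52.2 and 54.9 CPM) and E2f2 (23.9, 27.4, 27.5, 28.7 and 30.0 CPM). Tk1 was at 11.9, 12.6, 14.7, 14.9 and 18.3 CPM (0.40 ± 0.15, edgeR adjusted p = 0.103) and Brca1 at 4.65, 4.68, 4.92, 6.21 and 6.34 CPM (0.34 ± 0.16, edgeR adjusted p = 0.19). Chaf1a was at 13.2, 13.6, 14.4, 14.5 and 15.0 CPM (0.07 ± 0.10) and Pold1 at 29.3, 34.4, 35.2, 35.8 and 36.4 CPM (-0.05 ± 0.10). Pola2 was at 21.1, 22.6, 23.8, 23.8 and 24.7 CPM (-0.20 ± 0.09, edgeR adjusted p = 0.185), on the same side of LPS as with the other AAT forms.

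Over all 17148 tested genes, 3.94% were called higher with oxAAT and 6.47% with recAAT, and 132 and 346 genes were called lower. Of the 41 other replication genes, 1 rose with oxAAT (Orc4, 0.56 ± 0.13) and 6 with recAAT, among them Hells (0.58 ± 0.12), Orc4 (0.62 ± 0.13), Dck (0.44 ± 0.12) and Rrm2b (0.65 ± 0.18). Of the 29 G1/S regulators, Cdkn1b (0.74 ± 0.11) and Mycn (0.79 ± 0.22) rose and Myc fell by 0.62 (SE 0.12) with oxAAT. With recAAT 5 rose and 2 fell, among them Cdkn1b (0.84 ± 0.11), Mycn (0.86 ± 0.22) and Rb1 (0.54 ± 0.15), which rose, and Myc, which fell by 0.53 (SE 0.12). Of the 23 mitosis genes, Ccna2 alone rose with oxAAT (0.62 ± 0.15), and 5 rose with recAAT, among them Ccna2 (0.93 ± 0.15), Ccnb1 (0.93 ± 0.17), Ube2c (0.61 ± 0.16) and Prc1 (0.54 ± 0.15). Alveolar macrophage markers summed to 698 to 943 CPM with oxAAT and 537 to 966 CPM with recAAT, overlapping LPS, and none of the 12 was called in either comparison. Calls in these lists are given from the fit of all 23 libraries without set as a term. With set as a term, 2 of all 17148 genes were called higher and 4 lower for oxAAT against LPS, and 0 for recAAT. In the first set alone, 4 of 17179 genes were higher and 9 lower for oxAAT. A fit of the LPS and LPS+oxAAT libraries alone called 9 of 16147 higher and 6 lower. Library set moved with these lists as with the members, and its part in them was not tested.

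The AAT forms were given at the same dose and times, and 3 pairs were compared directly. Between oxAAT and nAAT no member was called in either direction (edgeR), where 0.216% of all tested genes were higher and 0.128% lower. The DESeq2 Wald test called 1 member, Rrm2, lower, where 91 of 17145 genes were called lower. The members' values still lay mostly to the low side: 43 of 46 log2 fold changes were below 0, against 49.9% of all tested genes, and the median was -0.21. At an unadjusted p under 0.05, 19 members were lower with oxAAT and none higher, against 5.77% and 6.06% of all genes. The median was -0.19 with set as a term, with 41 values below 0, and was also -0.19 when only the 2 oxAAT libraries of the first set were used. Rrm2 gave -0.42 ± 0.11 (95% interval -0.64 to -0.20, edgeR adjusted p = 0.0965), Orc1 -0.67 ± 0.20 and Dtl -0.47 ± 0.17. Gins1 and Orc1 were lower in every oxAAT library than in any nAAT library, against 1.32% of all genes. Alveolar macrophage markers summed to 698 to 943 CPM with oxAAT and 976 to 1294 CPM with nAAT, with none of 12 called, and S100a8 and S100a9, 2 of the 7 neutrophil markers, were called lower. The part of these cells was not tested.

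Between recAAT and nAAT no member was called (edgeR and the DESeq2 Wald test), where 1.21% of all tested genes were higher and 0.723% lower, and 2 members were higher and 2 lower at an unadjusted p under 0.05, against 7.84% and 7.02% of all genes. The median was -0.08, with 34 values below 0, against 49.4% of all genes. Library set and group coincide here too, since every nAAT library was in the first set and every recAAT library in the second. With set as a term the median was -0.04, with 27 values below 0, against 50.4% of all genes. None of the 17148 genes was called in that fit. Ccne2, with 0.71 ± 0.25 (95% interval 0.22 to 1.19, edgeR adjusted p = 0.15), was the only member higher in every recAAT library than in any nAAT library, and Mcm6 and E2f1 were lower in every one, against 3.55% of all genes wholly above and 2.05% wholly below. Rrm2 gave -0.20 ± 0.11 (95% interval -0.42 to 0.01), Pclaf -0.07 ± 0.18 (-0.43 to 0.29) and Uhrf1 -0.07 ± 0.11 (-0.30 to 0.15). In the same comparison 6 of the 12 alveolar macrophage markers were lower with recAAT.

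Between recAAT and oxAAT no member was called by either tool, where 0% of all tested genes were higher and 0.0175% lower, and 4 members were higher at an unadjusted p under 0.05, against 1.45% of all genes. The estimates leaned to recAAT, with 44 of 46 above 0 and a median of 0.13, against 48.6% of all tested genes below 0. Within the second set alone the median was also 0.13, with 38 above 0. Chaf1a, at 0.31 ± 0.10 (95% interval 0.11 to 0.51), had an unadjusted p of 0.00502. It and Ccne1 were higher in every recAAT library than in any oxAAT library, against 0.391% of all genes. For Rrm2 the interval was 0.00 to 0.44, for Ccne2 -0.02 to 0.93 and for Pcna -0.07 to 0.28, so differences of these sizes between the forms were not resolved with 5 mice a group.

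**Figure D4:**
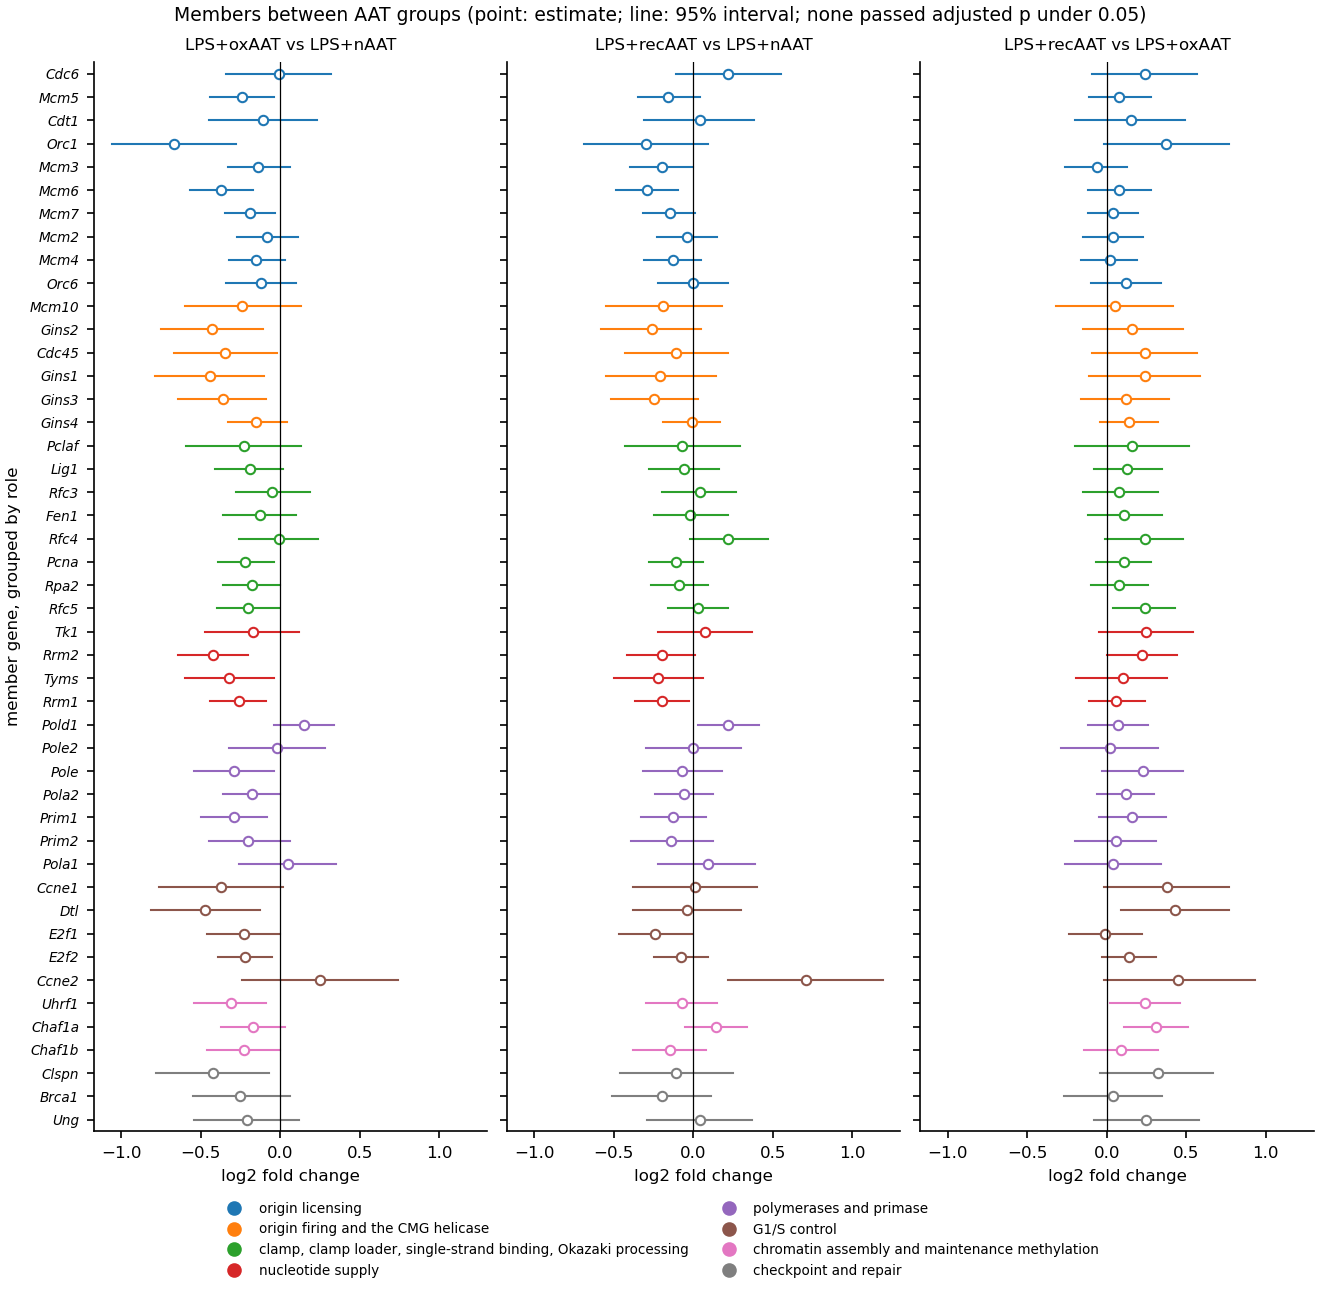
Log2 fold change of each of the 46 members (x axis) between pairs of AAT groups, with genes on the y axis grouped and coloured by role in the order of LPS against air. Points are estimates and lines are 95% intervals. Between oxAAT and nAAT 43 of 46 points lie left of 0, and between recAAT and oxAAT 44 of 46 lie right of 0, and none passed the adjusted threshold.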

How the data were processed

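Poly(A) RNA of 23 mouse lungs was sequenced with a stranded kit, per the labels' protocols. The authors deposited raw counts per Ensembl gene, with no normalization; STAR 2.4.0.1, HTSeq 0.11.1 and the build GRCm38 are named, without roles, per the submitters' processing notes, as are Trimmomatic 0.36 and 0.38 and FastQC 0.11.8. Which annotation and strand setting the authors counted with is not given in the sources used here. In 13 members some exon bases are shared with a gene on the opposite strand. Besides Gins2, Chaf1a, Ccne2 and Rfc4 they are Lig1 (247 bases), Tk1 (83 bases), Mcm7, Cdc45, Orc1, Orc6, Pole, Rfc5 and Fen1. Symbols came from GENCODE mouse release 21, which named 40254 of 41388 genes. The 5 summary lines were left out of library sizes, and reads on no feature were 6.79% to 13.13% of those tallied.

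All 23 libraries entered 1 model with a mean per group (edgeR 4.0.16 in R 4.3.3, quasi-likelihood F test, two-sided, robust, TMM factors 0.978 to 1.028, filterByExpr). P-values were adjusted by Benjamini-Hochberg over the 17148 genes in each of the 7 comparisons, with calls under 0.05. Calls are shown against the share of all tested genes called the same way. SE is the fold change divided by the root of F, and intervals are 1.96 SE each side. CPM are TMM-scaled, the score is a mean of log2 CPM (prior count 2), and SD is over mice. No number in the labels ties mice of different groups. Replicate pairs differed by far more than counting error (chi-square per degree of freedom 5.48 to 74.4 in 43 pairs). The fit was also run on simulated counts with known changes in LPS against air and nAAT against LPS, without a difference between library sets. The outcome is not reported here, and the simulation did not cover oxAAT or recAAT against LPS.

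Members and lists were chosen with earlier results of these data known. In each comparison up to 6 called members of smallest adjusted p are given library by library, with the member of highest mean CPM of each role, and up to 4 called genes of each other list. Alternatives were DESeq2 1.42.0 size factors and Wald test, other filters, a fit of the groups compared, a block by the mouse number's last digit, library set as a term or as a selection, removal of a curve of counts on GC content, and leaving out each library. An AAT peptide group and 2 further air mice that the labels' 5 per group would imply were not analysed here.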

Additional observations from a re-analysis of the deposited data

Results flagged for a closer look

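In 6 of 76 groups of 5 values examined (18 members and the score in 4 groups), 1 library stood apart from the other 4, by a gap of over 0.71 of the group's range. Chance gives about 1 in 20 such groups. In LPS, Pclaf was 2.44 CPM in replicate 1104 with the others at 3.45 to 3.73, Chaf1a was 16 CPM in the same replicate with the others at 12.7 to 13.1, and Rrm1 was 53.1 CPM in replicate 1103 with the others at 42.7 to 45.65. In LPS+nAAT, Pcna was 83.6 CPM in replicate 4104 with the others at 69.4 to 73.5, and Rrm1 was 47.2 CPM in replicate 4101 with the others at 56.1 to 59.4. In LPS+recAAT, Pold1 was 29.3 CPM in replicate 6103 with the others at 34.4 to 36.4. Without LPS replicate 1104, Pclaf was not called for nAAT against LPS but was still called for recAAT against LPS.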

How the results depend on the processing

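The medians of the members in all 7 comparisons moved by less than 0.08, the pooled SD of the score between mice, under every alternative run. With set as a term the median went from 0.10 to 0.17 for recAAT against LPS and from -0.08 to -0.04 for recAAT against nAAT. The 5 group means of the score moved by less than the SD of their own group. Leaving out 1 library of a group could not move its mean by that much. No named member that was called changed sign. Counts of called members moved more. For LPS against air the 13 became 5 with only the groups compared and 7 with only the first library set. All genes called higher were 465 of 17148, 268 of 16472 and 370 of 17179 in these fits, in that order. For nAAT against LPS the 3 became 8 by the DESeq2 Wald test, 1 with no filter beyond 1 count and 0 with only the groups compared. All genes called higher moved too, from 77 of 17148 to 289 of 14154, 34 of 26445 and 7 of 16126. For oxAAT against LPS the 2 became 1 with no filter and 0 with only the groups compared, set as a term, only 1 set or the GC curve removed. All genes called higher and lower went from 676 and 132 of 17148 to 571 and 62 of 26445 with no filter. They were 9 and 6 of 16147, 2 and 4 of 17148, 4 and 9 of 17179, and 182 and 77 of 17148 in the other fits. For recAAT against LPS the 7 became 3 with no filter, 4 with only the groups compared, 0 with set as a term and 3 with the GC curve removed. For oxAAT against nAAT the 0 became 1, lower, by the Wald test, with 91 of 17145 genes lower against 22 of 17148. Leaving out each library gave 4 to 15 called for LPS against air, 1 to 4 for nAAT, 0 to 4 for oxAAT and 3 to 8 for recAAT against LPS, and 0 to 1 for oxAAT against nAAT. All genes called higher ran over 274 to 525, 11 to 116, 145 to 1350 and 709 to 1522 in the first 4 comparisons. Those called lower ran over 22 to 531 for oxAAT against LPS and 1 to 81 for oxAAT against nAAT. The smaller fits hold fewer samples, and the cause of the moved counts was not tested. Within 1 set, recAAT could not be compared with LPS or nAAT, since no library set holds both. A replicate block by the mouse number's last digit gave 17, 4, 3 and 7 members called for LPS against air and nAAT, oxAAT and recAAT against LPS. Of all 17148 genes, 655, 180, 911 and 1389 were called higher in that fit, and 256 lower for oxAAT. Same-digit libraries of different groups had a mean correlation of deviations of 0.05 (-0.38 to 0.35 over 42 pairs), and 7 of 23 libraries correlated best with their own digit. The members of lowest mean CPM, and so of fewest counts, were Orc1 (1.38), Ccne2 (2.06) and Ccne1 (2.58).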
